A study of Arabidopsis thaliana with 9 samples.

Results

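Arabidopsis thaliana has 7 genes for calmodulin, named CAM1 to CAM7, and 50 genes for calmodulin-like proteins, named CML1 to CML50. Together these 57 genes are described here, out of 32678 gene rows in the count tables, and they were taken by gene identifier. RNA was sequenced from whole seedlings 7 days old, grown at 23 °C on 2.5 mM ammonium succinate and no other nitrogen source, and pooled at about 10 seedlings a sample. There were 3 groups of 3 libraries, each treated for 15 min. Wild type received 10 mM KCl, wild type received 10 mM KNO3, and icpk received 10 mM KNO3. The icpk line is labelled an inducible triple mutant of cpk10, cpk30 and cpk32, calcium-dependent protein kinase genes, and it expresses CPK10(M141G)-DHA, a form of CPK10 that the small molecule 3MBiP blocks. The protocol describes 10 µM 3MBiP for 2 min before the salt, without saying which samples received it. All groups share the ammonium medium and the wash before the salt, and KCl supplies the potassium without nitrate. Libraries of icpk given KCl were not analysed here, so an altered nitrate response, a difference present before nitrate and an effect of 3MBiP cannot be told apart. Whether the 3 libraries of a group stem from separate cultures is not stated, so p-values measure only how far these samples spread, and that spread may be technical.

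Calmodulin binds calcium through EF-hands, helix-loop-helix folds whose loop holds the ion. When cytosolic calcium rises, the loaded protein changes shape and binds targets such as calcium pumps, ion channels, metabolic enzymes and transcription factors. CML proteins are plant relatives with the same kind of fold but more varied sequences, and several are known for transcripts that accumulate soon after touch, cold, wounding or pathogen attack. Nitrate supplied to plants deprived of it is followed by a calcium signal. CPK10, CPK30 and CPK32 belong to another kind of calcium sensor, in which EF-hands and a kinase are joined in a single protein.

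For the protein of each gene, 1 transcript of the RefSeq models of assembly TAIR10.1 was read. It was the one with the most EF-hand loops and, among equals, the shortest protein. In these transcripts each calmodulin gene encodes 149 codons, stop excluded, with 4 EF-hand loops. The proteins encoded by CAM2, CAM3 and CAM5 do not differ at any residue, and neither do those of CAM1 and CAM4. CAM7 differs from the first of these proteins by 1 residue and CAM6 by 2. The genes nevertheless differ in their bases, CAM2 from CAM3 at 39 coding positions and CAM1 from CAM4 at 47. The loops of the first EF-hand are shown as an example of how genes with the same protein differ in their bases. The 36 bases start at codon 21 and encode the same residues in all 7 genes, and capitals mark bases that differ from CAM2.
CAM1: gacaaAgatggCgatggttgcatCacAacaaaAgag
CAM2: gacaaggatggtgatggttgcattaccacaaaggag
CAM3: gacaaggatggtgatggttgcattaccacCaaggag
CAM4: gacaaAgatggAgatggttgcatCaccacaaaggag
CAM5: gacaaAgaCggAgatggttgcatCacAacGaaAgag
CAM6: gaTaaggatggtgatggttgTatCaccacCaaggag
CAM7: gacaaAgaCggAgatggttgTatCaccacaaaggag
CAM2 and CAM3 differ at 1 of these bases and CAM5 differs from CAM2 at 7, although the protein is the same. No stretch of 50 bases, the number of sequencing cycles, in the transcripts of any CAM gene occurs exactly elsewhere in the genome or in other annotated transcripts. Inexact matches were not searched for, and the alignment settings are not given. Such stretches were found in 4 CML genes, at 0.34% of positions in CML11, 0.343% in CML12, 0.416% in CML4 and 0.795% in CML10.

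CML23 (AT1G66400) and CML24 (AT5G37770) are near copies of each other, and each lies beside a calmodulin gene, CAM4 and CAM1. CML24 is also called TCH2, a gene named for its response to touch. CGCGTT is a form of the element bound by CAMTA proteins, which are calmodulin-binding transcription factors. Other forms of the element were not searched for. CML23 and CML24 are the only members whose 250 bases before the annotated start hold CGCGTT. That is 2 of 57 members (3.51%), against 2.59% of the promoters of 27443 protein-coding genes. The promoters of both genes follow, on the minus strand of TAIR10.1, chr1:24771394-24771643 for CML23 and chr5:14999620-14999869 for CML24, and neither stretch overlaps an annotated gene. Capitals mark CGCGTT on either strand, and in CML23 also TTGAC, read as GTCAA on the other strand, the core of the element bound by WRKY proteins.
CML23: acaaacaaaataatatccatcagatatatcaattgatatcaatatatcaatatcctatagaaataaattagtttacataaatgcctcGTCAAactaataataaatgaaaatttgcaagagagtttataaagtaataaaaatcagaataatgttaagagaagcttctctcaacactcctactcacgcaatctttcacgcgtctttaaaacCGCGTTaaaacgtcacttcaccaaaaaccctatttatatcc
CML24: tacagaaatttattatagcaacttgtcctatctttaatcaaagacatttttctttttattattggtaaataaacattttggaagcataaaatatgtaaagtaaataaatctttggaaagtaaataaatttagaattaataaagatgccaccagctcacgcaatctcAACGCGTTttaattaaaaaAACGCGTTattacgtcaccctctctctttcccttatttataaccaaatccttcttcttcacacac
In CML24 each capital block reads as CGCGTT on both strands, which gives 4 overlapping matches, and CML23 has 1. TTGAC was present before 24 of the 57 members (42.1%) and before 44.9% of all genes, and CACGTG, the G-box, before 1 member, CML20 (1.75%), and 6.49% of all genes. A match is a description of the letters and not a site.

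The libraries held 5987352 to 19564785 counts in genes, and the members took 0.161% to 0.349% of them. Wild type KCl replicate 3 was the shallowest library, and 80.5% of its records were aligned to several places. The mutant check gave CPK30 at 12.3% and CPK32 at 10.4% of the wild type level in icpk with KNO3, and CPK10 at 177%, where counts do not separate the introduced from the native gene. All 15 root markers and all 15 photosynthesis markers had counts. After the filter on low counts, 43 members and 20288 genes in all were tested. CAM1 to CAM7 all passed the filter, as did 36 CML genes. Of the 14 members that did not, CML6, CML17, CML29, CML30 and CML34 had 0 counts in all 9 libraries, which allows a level of up to 0.146 to 0.55 CPM in a library (3 counts, counting error only). CML2, CML15, CML28, CML31, CML32 and CML33 had 1 to 5 counts over the 9 libraries. CML7 had 38 counts, CML25 had 59 and CML1 had 63. Levels are given in CPM, counts scaled to the library size.

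Levels of different genes were compared per kilobase of exon, as CPM per kb. In wild type with KCl the gene with the highest level was CML12, also called TCH3, a touch gene whose protein has 6 EF-hand loops, at 295 ± 89.8 CPM per kb (SD, n = 3). CML35 stood at 208 ± 9.08 CPM per kb, within the spread of CML12. CAM2 followed at 165 ± 26.4 CPM per kb, below CML35 by more than both SDs. CAM3 stood at 132 ± 17.4, CML27 at 114 ± 16.7 and CAM1 at 108 ± 9.54 CPM per kb, and from CAM2 down each of these does not differ from the next beyond their spread. The other calmodulins ranged from CAM5 at 71.4 ± 6.04 CPM per kb through CAM4 at 67.9 ± 1.54 and CAM6 at 55.5 ± 1.74 to CAM7 at 33.2 ± 0.419. Their order depends on the exon lengths, taken from RefSeq models, while the annotation release used for counting is not given. Exons covered 2572 bases in CAM7 and 1872 in CAM4, against 1058 in CAM5 and 818 in CAM6. Before scaling by length, the KCl means were 127 CPM for CAM4, 85.5 for CAM7, 75.5 for CAM5 and 45.4 for CAM6. The lowest level among the tested members was that of CML3, at 0.706 ± 0.209 CPM per kb.

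**Figure D1:**
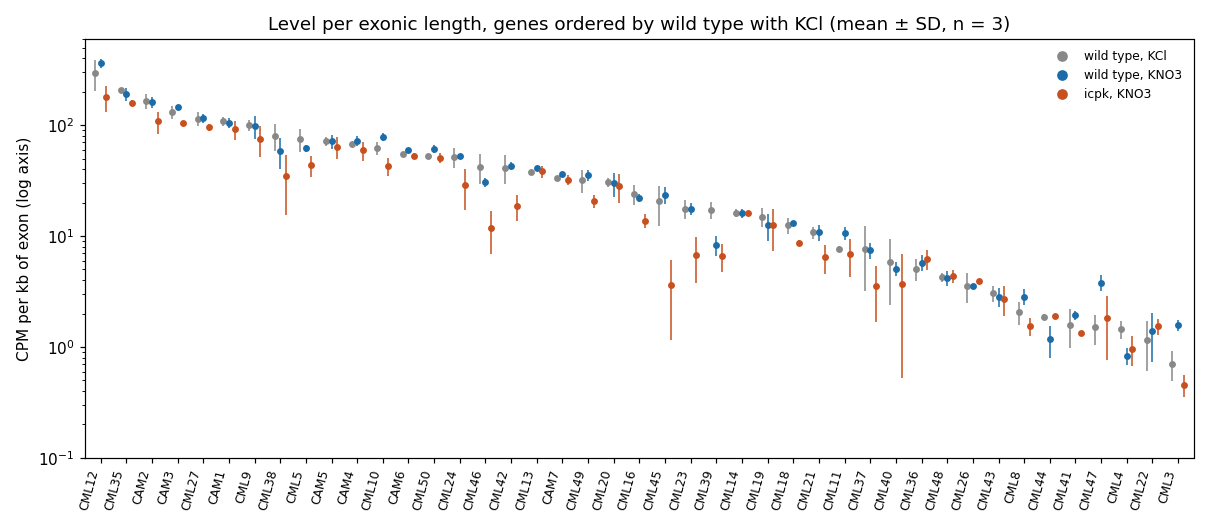
Levels of the 43 tested genes in CPM per kb of exon on a log axis, ordered by wild type with KCl, as mean ± SD of 3 libraries per group. CML12 stands highest at 295 CPM per kb and CML3 lowest at 0.706 CPM per kb with KCl, and the icpk points of CML45, CML46 and CML23 lie well below both wild type points.

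The comparison of KNO3 with KCl in wild type asks which of these genes respond to nitrate within 15 min. Calls were few among the members and among all genes tested. None of the 43 tested members rose, where 3.56% of all genes did, and 1 fell (2.33%), where 2.39% of all genes did. The median log2 difference of the members was 0.01, against -0.02 over all genes tested. At an unadjusted p under 0.05 in the same edgeR fit there were 3 members higher and 3 lower. Of all 20288 genes tested, 1898 were higher and 2453 lower at that p. DESeq2 called 1 member higher and limma voom 0.

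The member that fell was CML39 (AT1G76640), whose product is known to act in early seedling establishment. Its levels were 8.60, 12.2 and 10.8 CPM with KCl and 4.20, 4.88 and 6.20 CPM with KNO3. Every KNO3 library lay below every KCl library. The log2 difference was -1.04 ± 0.23 (SE), a 2.06-fold lower level, with an adjusted p of 0.0251. Leaving out KCl replicate 2 (adjusted p = 0.117), KCl replicate 3 (0.0619) or KNO3 replicate 1 of wild type (0.109) ended the call. CML38, its neighbour on the chromosome and known for its part in hypoxia, differed by -0.47 ± 0.39 on the log2 scale and was not called.

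Among the members that did not pass, CML47 and CML3 had the largest positive differences, and in both every KNO3 library lay above every KCl library. CML47 (AT3G47480), linked to the control of salicylic acid in immunity, had 2.19, 1.40 and 1.28 CPM with KCl and 4.84, 3.96 and 3.5 CPM with KNO3, a log2 difference of 1.25 ± 0.36 (adjusted p = 0.0729). Several alternatives called it, among them DESeq2 (adjusted p = 0.0242), the 6 libraries alone (0.0235), and the fits without icpk replicate 1 (0.0323) or icpk replicate 3 (0.0341). CML3 (AT3G07490), whose product binds the peroxisomal protease DEG15, had 0.632, 0.668 and 0.367 CPM with KCl and 1.23, 1.09 and 1.38 CPM with KNO3 (log2 difference 1.03 ± 0.31, adjusted p = 0.0779). These are low levels, from 2 to 21 counts a library. CML44 and CML4 lay on the other side, with log2 differences of -0.67 ± 0.26 (adjusted p = 0.170) and -0.73 ± 0.33 (adjusted p = 0.232).

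The calmodulin genes varied little between KCl and KNO3. CAM1 had 123, 113 and 134 CPM with KCl and 128, 126 and 105 CPM with KNO3. CAM2 had 125, 170 and 162 CPM, then 159, 158 and 130 CPM. CAM3 had 128, 159 and 166 CPM, then 165, 169 and 170 CPM. In each of these the groups overlapped. CAM4 had 124, 130 and 128 CPM with KCl and 146, 141 and 121 CPM with KNO3. CAM5 had 74.6, 82.3 and 69.6 CPM, then 83.5, 80.6 and 63.5 CPM. These groups overlapped too. CAM6 had 43.8, 45.7 and 46.6 CPM with KCl and 48.8, 47 and 50.1 CPM with KNO3. CAM7 had 85.8, 84.3 and 86.3 CPM, then 91.5, 88.9 and 97.8 CPM. For CAM6 and CAM7 every KNO3 library lay above every KCl library, by a small margin. The log2 differences of the 7 genes ran from -0.04 (CAM1) to 0.15 (CAM3), none was called, and the smallest unadjusted p was 0.179. Their summed level was 704.8, 784.3 and 792.5 CPM with KCl and 821.2, 811.2 and 736.9 CPM with KNO3.

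**Figure D2:**
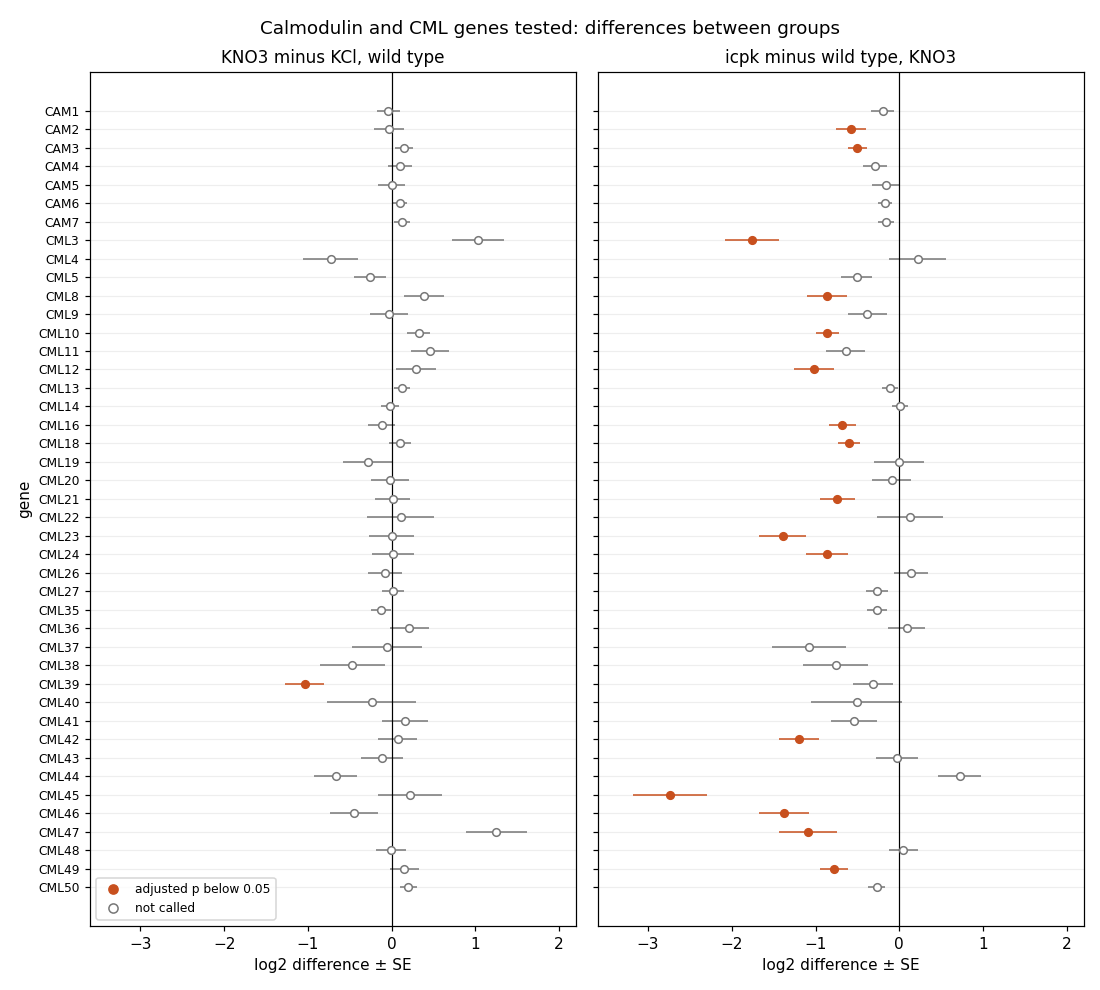
Log2 differences with their standard errors for the 43 tested genes, KNO3 minus KCl in wild type (left) and icpk minus wild type with KNO3 (right), filled where the adjusted p was below 0.05. On the left CML39 alone is called, at -1.04, and on the right 16 genes are called, all of them lower, down to -2.74 for CML45.

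The comparison of icpk with wild type under KNO3 asks how these genes differ in a line with low CPK30 and CPK32 transcript levels. Whether CPK10 was blocked is not known, because treatment with 3MBiP is not assigned to individual libraries. Here 16 of the 43 tested members were lower in icpk (37.2%), where 11.4% of all genes were lower, and none was higher, where 11.3% of all genes were higher. The edgeR fit gave 1 member higher at an unadjusted p under 0.05, where 3724 of 20288 genes were higher. DESeq2 and limma voom called 0 members higher. The genes lower in icpk were CAM2, CAM3, CML3, CML8, CML10, CML12, CML16, CML18, CML21, CML23, CML24, CML42, CML45, CML46, CML47 and CML49. The median log2 difference of the members was -0.50, against 0.01 over all genes, and 36 of 43 members had a negative difference, against 9979 of 20288 genes. In these bulk samples, fewer cells of a type and less RNA per cell cannot be told apart. This comparison uses the same wild type KNO3 libraries as the nitrate comparison, so a chance high value there would show in both.

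Library icpk replicate 3 was often the lowest. It had the lowest level of the 9 libraries for 29 of 43 members, against 19.8% of all genes tested, and the lowest of the icpk libraries for 14 of the 16 called members, against 53.6% of all genes called lower. Without it 13 members were called lower, 12 of them among the 16, with 7.74% of all genes called lower. Without wild type KNO3 replicate 1 there were 9, all among the 16, with 6.73% of all genes. With replicates 1 and 2 of every group alone there were 5, namely CML10, CML18, CML23, CML45 and CML46, with 3.75% of all genes. In the repository the replicate 3 samples of all groups are numbered apart from replicates 1 and 2, and the reason is not given. In all 9 fits that each left out 1 library, 9 of the 16 kept their call: CAM3, CML3, CML10, CML18, CML23, CML42, CML45, CML46 and CML49.

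Of the calmodulin genes, CAM2 and CAM3, which encode the same protein, were lower in icpk. CAM3 (AT3G56800) had 165, 169 and 170 CPM in wild type and 122, 121 and 113 CPM in icpk. The groups were far apart and the libraries within each agreed closely. The log2 difference was -0.50 ± 0.11, to 70.7% of wild type, with an adjusted p of 0.00925. CAM2 (AT2G41110) had 159, 158 and 130 CPM in wild type and 111, 114 and 74.0 CPM in icpk. The groups did not overlap, and replicate 3 was the lowest library in both. The log2 difference was -0.58 ± 0.18 (adjusted p = 0.0393). This call was lost without wild type KCl replicate 3 (adjusted p = 0.0509), wild type KNO3 replicate 1 (0.121), wild type KNO3 replicate 2 (0.0838) or icpk replicate 3 (0.0956). CAM2 overlaps AT2G41120 and a noncoding RNA gene on the opposite strand, whose reads cannot be told apart from its own because the kit does not mark strand.

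The remaining calmodulin genes were not called. CAM5 (AT2G27030), which encodes the same protein as CAM2 and CAM3, had 76.2, 76.8 and 50.4 CPM in icpk, overlapping wild type (log2 difference -0.16 ± 0.16, adjusted p = 0.516). CAM1 had 112, 119 and 81.9 CPM (-0.20 ± 0.14, adjusted p = 0.343). CAM4, with the same protein as CAM1, had 122, 125 and 84.8 CPM (-0.29 ± 0.14, adjusted p = 0.163). In each of these, icpk replicates 1 and 2 lay within the wild type range and replicate 3 lay below it. CAM6 had 45.4, 44.4 and 40.3 CPM, all below wild type (-0.17 ± 0.08, adjusted p = 0.162), and CAM7 had 84.0, 91.3 and 74.0 CPM (-0.16 ± 0.093, adjusted p = 0.254). The summed level of the 7 genes was 671.4, 692.3 and 518.8 CPM in icpk, below each wild type KNO3 library.

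**Figure D3:**
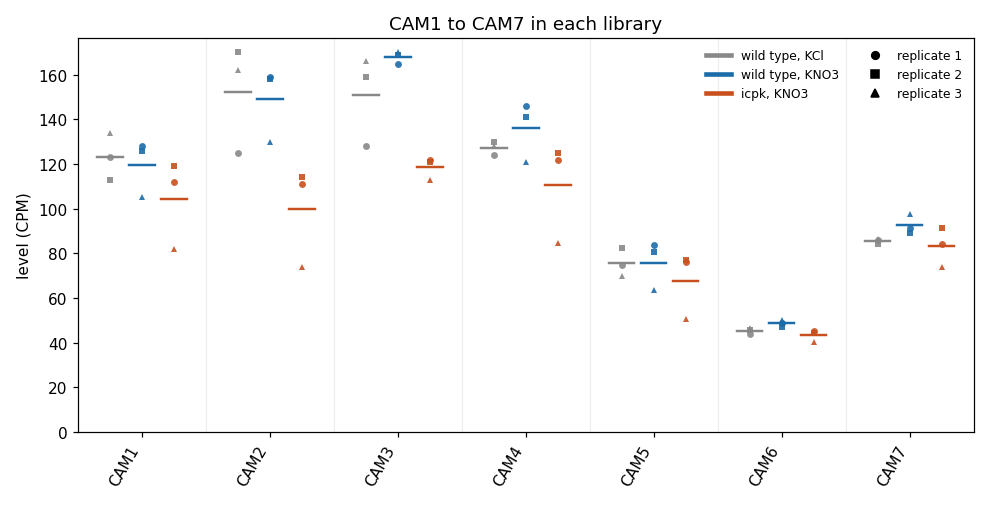
Levels of CAM1 to CAM7 in CPM in each of the 9 libraries, with a bar at each group mean. CAM3 shows the clearest gap, 113 to 122 CPM in icpk against 165 to 170 CPM in wild type with KNO3, and icpk replicate 3 is the lowest library for all 7 genes.

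The touch genes were lower in icpk. CML12 (TCH3, AT2G41100) had 1020, 851 and 888 CPM in wild type with KNO3 and 585, 421 and 352 CPM in icpk. No icpk library reached the lowest wild type library. The log2 difference was -1.02 ± 0.24, to 49.3% of wild type, with an adjusted p of 0.0132, and it was 0.0522 without wild type KNO3 replicate 1. With KCl the wild type libraries of CML12 ranged from 538 to 993 CPM. CML24 (TCH2) had 106, 101 and 107 CPM in wild type and 78.6, 61.3 and 33.1 CPM in icpk, where the spread was much wider than in wild type. Its log2 difference was -0.86 ± 0.25 (adjusted p = 0.0330). This call was lost without wild type KNO3 replicate 1 (0.0879), wild type KNO3 replicate 3 (0.0767) or icpk replicate 2 (0.0634). CML23, the near copy with a CGCGTT in its promoter as shown above, had 19.5, 16 and 16 CPM in wild type and 9.21, 7.19 and 3.39 CPM in icpk. The icpk libraries lay in the same order as for CML24, with replicate 3 lowest. The log2 difference of CML23 was -1.39 ± 0.28, to 38.2% of wild type, with an adjusted p of 0.00747.

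CML10 (AT2G41090), the chromosomal neighbour of CML12, binds phosphomannomutase, an enzyme of ascorbate synthesis. It had 122, 107 and 106 CPM in wild type with KNO3 and 74.7, 56.3 and 53.6 CPM in icpk. The groups stood well apart, and the log2 difference was -0.86 ± 0.14 (adjusted p = 0.00304). CML10 and CML12 both overlap an annotated noncoding RNA gene on the opposite strand. CML12 also overlaps the protein-coding gene AT2G41105, and CML24 the protein-coding gene AT5G37760, both on the opposite strand.

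CML46 (AT5G39670), which like CML47 is linked to the control of salicylic acid, had 28.7, 28.6 and 24.3 CPM in wild type and 14, 11.8 and 5.60 CPM in icpk. Each icpk library lay well below the wild type libraries. The log2 difference was -1.38 ± 0.30, to 38.3% of wild type, with an adjusted p of 0.00989. CML47 had 4.84, 3.96 and 3.5 CPM in wild type and 3.22, 1.75 and 0.969 CPM in icpk, which do not overlap, but replicate 1 of icpk came close. Its log2 difference was -1.09 ± 0.35 with an adjusted p of 0.0481, the weakest of the 16 calls. The call was kept without icpk replicate 1 (adjusted p = 0.0128) and lost in each of the other fits that left out 1 library: the adjusted p was 0.0501, 0.0615 and 0.0590 when KCl replicate 1, 2 or 3 was left out, 0.155, 0.0769 and 0.0720 for replicate 1, 2 or 3 of wild type with KNO3, and 0.127 and 0.122 for icpk replicate 2 or 3. It was also lost with the 6 libraries alone (0.0664). CML42 (AT4G20780), known for its part in trichome branching and in defence against insects, had 46.2, 39.6 and 41.1 CPM in wild type and 20.1, 22.2 and 12.9 CPM in icpk. The groups stood apart, with a log2 difference of -1.20 ± 0.24 (43.5% of wild type, adjusted p = 0.00656). CML8 (AT4G14640), which acts in defence against bacteria, had 2.58, 2.35 and 3.23 CPM in wild type and 1.22, 1.75 and 1.45 CPM in icpk. The groups did not overlap at these low levels, and the log2 difference was -0.86 ± 0.24 (adjusted p = 0.0297). Its call was lost without wild type KNO3 replicate 1 (0.0706), wild type KNO3 replicate 3 (0.102), icpk replicate 1 (0.0798) or icpk replicate 3 (0.0746).

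The member with the greatest difference was CML45 (AT3G29000), whose product has 2 EF-hand loops. It had 24.9, 19 and 18.1 CPM in wild type with KNO3 and 5.39, 3.01 and 1.11 CPM in icpk, that is 275 to 385 counts a library against 16 to 62. All icpk libraries were far below wild type, and they differed among themselves. The log2 difference was -2.74 ± 0.44, to 14.9% of wild type, with an adjusted p of 0.00260. CML3 had 1.23, 1.09 and 1.38 CPM in wild type and 0.435, 0.370 and 0.277 CPM in icpk, from 4 to 7 counts a library. The groups were apart, with a log2 difference of -1.76 ± 0.32 (adjusted p = 0.00491).

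The other members called lower had smaller differences. CML18 (AT3G03000), a partner of the vacuolar sodium-proton exchanger NHX1, had 11.9, 12.2 and 13 CPM in wild type and 8.43, 7.56 and 8.58 CPM in icpk. Both groups were tight, and the log2 difference was -0.60 ± 0.13 (adjusted p = 0.0113). CML49 (AT3G10300) encodes a longer protein of 324 codons with 2 EF-hand loops, and had 73.6, 93.0 and 87.0 CPM in wild type and 55.1, 50.8 and 41.8 CPM in icpk. The groups did not overlap (log2 difference -0.78 ± 0.17, adjusted p = 0.0101). CML16 (AT3G25600) had 28.9, 25.4 and 24.5 CPM in wild type and 18.5, 16.9 and 13.8 CPM in icpk. Its groups were also apart (-0.68 ± 0.16, adjusted p = 0.0151), and the call was lost without wild type KNO3 replicate 1 (0.0620). CML21 (AT4G26470) had 16.7, 13.9 and 12.2 CPM in wild type and 9.73, 10.2 and 5.67 CPM in icpk. The groups did not overlap (-0.74 ± 0.21, adjusted p = 0.0295), and the call was lost without wild type KNO3 replicate 1 (0.112) or icpk replicate 3 (0.0602). CML21 and CML46 each overlap a protein-coding gene on the opposite strand.

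**Figure D4:**
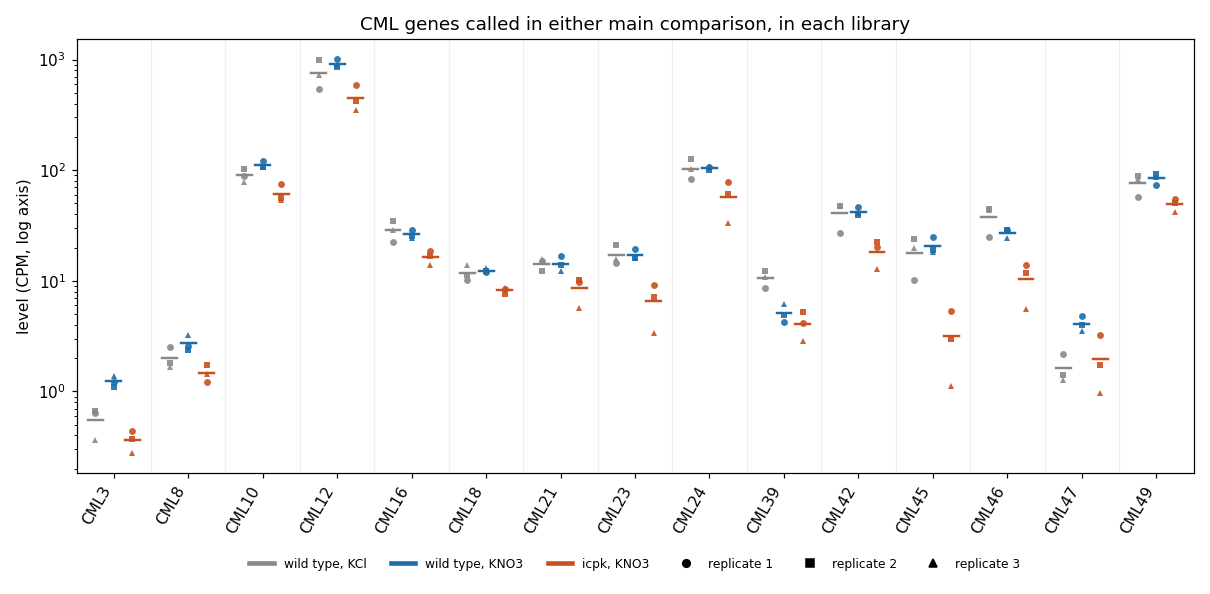
Levels of the 15 CML genes called in the nitrate or the icpk comparison, in CPM on a log axis, for each of the 9 libraries, with a bar at each group mean. For every gene but CML39 the icpk points lie below all wild type KNO3 points, and for CML39 both KNO3 groups lie below KCl, 2.84 to 6.20 CPM against 8.60 to 12.2 CPM.

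The 27 tested members that were not called had log2 differences from -1.08 (CML37) to 0.72 (CML44). CML37, known for its part in jasmonate-linked defence, had 8.53, 10.2 and 12.0 CPM in wild type and 7.30, 5.13 and 2.21 CPM in icpk, and its wide spread left an adjusted p of 0.101. CML11 had 20.7, 21.1 and 16.5 CPM and then 13.7, 16.3 and 7.33 CPM (-0.64 ± 0.23, adjusted p = 0.0731). Replicate numbers were taken to pair the libraries of this comparison, and with the replicate as a block CML11 was called lower (-0.68 ± 0.17, adjusted p = 0.0237). CML44 was the only member with an unadjusted p under 0.05 in the other direction. It had 1.03, 0.861 and 1.58 CPM in wild type with KNO3 and 1.91, 1.85 and 1.94 CPM in icpk (adjusted p = 0.0692), and its KCl libraries were at 1.94, 1.74 and 1.83 CPM. Without wild type KNO3 replicate 3 it was the 1 member called higher. CML39, the gene lower with nitrate, stayed low in icpk at 4.17, 5.18 and 2.84 CPM (log2 difference from wild type with KNO3 -0.31 ± 0.24, adjusted p = 0.385). CML13 and CML14, light chains of plant myosins, differed by -0.11 ± 0.093 and 0.01 ± 0.10 on the log2 scale, and CML19 and CML20, which belong to the centrins, by 0.00 ± 0.30 and -0.09 ± 0.23.

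The authors' deposited table for the icpk comparison called 17 of these genes lower at an adjusted p below 0.05, among them all 16 found here and CML50 (authors' adjusted p = 0.0269), and none higher. Its log2 fold changes for CML45 and CML3 were -1.27 and -1.09, smaller in size than the -2.74 and -1.76 found here. The submitters' notes name DESeq2 and the values here come from edgeR, so the sizes may not be the same measure. The cause of the gap was not tested. For CAM3 both were -0.50. The authors' deposited table for nitrate called CML39 lower (log2 fold change -0.84) and CML47 higher (log2 fold change 0.97, adjusted p = 0.00991).

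The comparison of icpk given KNO3 with wild type given KCl shares its libraries with the others and differs in both genotype and salt. It sets the icpk levels beside seedlings that received no nitrate. Of the 43 tested members 8 were lower in icpk (18.6%), where 3.84% of all genes were lower, and none was higher, where 3.15% of all genes were higher. In the edgeR fit 0 members were higher at an unadjusted p under 0.05, where 2123 of 20288 genes were higher. DESeq2 and limma voom called 0 members higher. The members lower were CML5, CML10, CML16, CML23, CML39, CML42, CML45 and CML46. The log2 differences of CML45 and CML46 were -2.52 ± 0.44 (adjusted p = 0.00705) and -1.84 ± 0.30 (adjusted p = 0.00516). With KCl, CML45 had 10.2, 24 and 19.6 CPM and CML46 had 24.7, 44.7 and 43.3 CPM, so the icpk libraries given above lay below every KCl library of both genes. CML23 had 14.6, 20.9 and 15.9 CPM with KCl (-1.39 ± 0.28, adjusted p = 0.0152) and CML42 had 27, 47.6 and 47.7 CPM (-1.13 ± 0.24, adjusted p = 0.0173). CML10 had 88, 103 and 77.9 CPM (-0.55 ± 0.14, adjusted p = 0.0460) and CML16 had 22.5, 34.5 and 28.8 CPM (-0.80 ± 0.17, adjusted p = 0.0161). In these 4 genes too the groups did not overlap. CML39, lower with nitrate in wild type, differed by -1.35 ± 0.24 (adjusted p = 0.00692). CML5, outside the rule for naming and named after its values were seen, had 54.3, 81.3 and 86.7 CPM with KCl and 44.7, 51.4 and 33.4 CPM in icpk, which do not overlap (-0.77 ± 0.19, adjusted p = 0.0345). CML3 and CML47, which lay low in both of these groups, differed by -0.73 ± 0.37 (adjusted p = 0.310) and 0.17 ± 0.39 (adjusted p = 0.857). The count was 3 without wild type KCl replicate 2, with 1.64% of all genes lower, and 4 without wild type KCl replicate 3, with 1.83%. It was 4 without icpk replicate 3, with 2.01% of all genes, and 12 without wild type KCl replicate 1, with 4.69%. CML10 was called without icpk replicate 1 and lost its call in the other 8 fits that left out 1 library (adjusted p 0.0513 to 0.179) and with the 6 libraries alone (0.0669). CML16 lost its call without KCl replicate 2 (0.0723), KCl replicate 3 (0.0528) or icpk replicate 3 (0.0601). CML42 lost it without the same libraries (0.0826, 0.0671 and 0.0544), and CML23 without KCl replicate 2 (0.0736). CML5 was not called without KCl replicate 2, KCl replicate 3, wild type KNO3 replicate 1, icpk replicate 1 or icpk replicate 3, nor with the 6 libraries alone. Members called lower in the comparison with wild type given KNO3 and not here had KCl levels as follows. CML49 had 56.8, 89.5 and 82.8 CPM and CML24 had 83.4, 125 and 102 CPM, above every icpk library. CML18 had 10.2, 11.2 and 13.9 CPM and CML21 had 15, 12.2 and 15.6 CPM, also above icpk. CAM2 had 125, 170 and 162 CPM and CAM3 had 128, 159 and 166 CPM, again above every icpk library. CML8 had 2.53, 1.8 and 1.65 CPM, which overlapped icpk. CML12 had 538, 993 and 723 CPM, which also overlapped icpk, as did the KCl libraries of CML3 and CML47. CML39, CML45 and CML46 were called in all 9 fits that left out 1 library.

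Genes that work with calmodulin were followed from lists of calcium pumps, channels and targets. In the icpk comparison under KNO3 their counts stand beside 11.4% of all genes lower and 11.3% higher. Of 9 tested calmodulin-regulated calcium pumps (ACA), 3 were lower and none higher, with a list median of -0.35: ACA2 in the endoplasmic reticulum fell from 109 ± 17 to 66.8 ± 4.58 CPM (log2 difference -0.71 ± 0.13, adjusted p = 0.00544), ACA1 had -0.71 ± 0.19 (0.0254), and the vacuolar ACA11 had -0.38 ± 0.12 (0.0453). Of 4 vacuolar calcium-proton exchangers (CAX), 3 were lower, CAX4 by -1.19 ± 0.28 (adjusted p = 0.0143), CAX3 by -0.51 ± 0.12 (0.0165) and CAX2 by -0.42 ± 0.12 (0.0298). CAX1 was not among them, but in wild type it rose with nitrate from 98.1 ± 5.89 to 194 ± 21.7 CPM (log2 difference 0.99 ± 0.12, adjusted p = 0.000607) and stood at 179 ± 20.4 CPM in icpk. ACA4, like ACA11 a vacuolar pump, rose with nitrate by 0.41 ± 0.10 (adjusted p = 0.0454).

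Of 17 tested cyclic nucleotide-gated channels (CNGC), which admit calcium and bind calmodulin, 6 were lower and 1 higher in icpk, with a median of -0.32. CNGC13 differed by -1.31 ± 0.21 (adjusted p = 0.00246), CNGC11 by -1.29 ± 0.20 (0.00217), CNGC10 by -0.57 ± 0.10 (0.00419) and CNGC4, the gene that was higher, by 0.60 ± 0.15 (0.0182). None of the 17 was called for nitrate, where 3.56% of all genes tested were higher and 2.39% lower. Of 14 transcription factors of the CAMTA and CBP60 families, most of which bind calmodulin while SARD1 does not, 4 were lower in icpk and none higher, with a median of -0.25. SARD1 and CBP60G, which drive salicylic acid synthesis, differed by -1.36 ± 0.25 (adjusted p = 0.00474) and -0.61 ± 0.10 (0.00359). CAMTA3, a CAMTA protein that restrains immunity, differed by -0.61 ± 0.16 (0.0206) and CBP60E by -0.67 ± 0.20 (0.0347). None of the 14 was called for nitrate, and in lists this short that is near the same shares. Of 4 tested calmodulin-activated enzymes 1 was lower in icpk, GAD1, a glutamate decarboxylase (-0.46 ± 0.15, adjusted p = 0.0490), and none was called for nitrate.

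Of 10 genes known for rapid responses to touch and stress, 9 were also lower in icpk and none higher, with a median log2 difference of -1.32. Of all genes tested, 11.4% were lower and 11.3% higher. Like the other lists, this list was chosen with earlier results of these data known. ERF5, an ethylene response factor, fell from 71.4 ± 2.46 to 26.4 ± 3.52 CPM (-1.44 ± 0.14, adjusted p = 0.000417). ZAT10, a zinc finger repressor, differed by -1.25 ± 0.17 (0.00129), WRKY33, a defence regulator, by -1.40 ± 0.21 (0.00182) and ERF6 by -1.58 ± 0.24 (0.00209). With nitrate in wild type 2 of the 10 rose, the zinc finger genes CZF1 (1.04 ± 0.16, adjusted p = 0.00364) and SZF1 (0.87 ± 0.20, adjusted p = 0.0308), and none fell. Of all genes tested, 3.56% rose with nitrate and 2.39% fell. The summed level of the 10 genes was 1130 to 2050 CPM with KCl, 2110 to 2480 CPM with KNO3 in wild type and 850 to 1160 CPM in icpk. The summed level of the 57 members was 2451 to 3327 CPM, 2983 to 3212 CPM and 1740 to 2325 CPM in the same groups. A large part of this sum is CML12 alone, at means of 752 ± 229, 919 ± 86.9 and 453 ± 120 CPM.

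Of 15 root markers 4 were lower in icpk with KNO3 than in wild type and none higher, where 11.4% of all genes were lower and 11.3% higher (PRP3, PLT1, PLT2 and EXPA7, median of the list -0.50). The root list summed to 245 to 355 CPM in wild type with KNO3 and 184 to 254 CPM in icpk, and to 206 to 259 CPM with KCl. Of 15 photosynthesis markers 3 were higher in icpk and none lower (CAB3, GAPB and SBPASE, median 0.53), and their sum was 30400 to 44600 CPM in wild type with KNO3, 43900 to 65600 CPM in icpk and 49400 to 59800 CPM with KCl. With nitrate in wild type 1 photosynthesis marker, CAB3, fell, and no root marker was called. Of all genes tested, 3.56% rose with nitrate and 2.39% fell. All 15 photosynthesis markers had a negative difference with nitrate (median -0.54), 9 of them at an unadjusted p under 0.05, and 12 of the 15 were higher in icpk at that p. Of all 20288 genes tested, 2453 were lower with nitrate and 3724 were higher in icpk at that p. At an unadjusted p under 0.05, 0 photosynthesis markers were lower in icpk, and of all the lists of this and the preceding paragraphs CNGC alone held genes higher in icpk, 2, apart from the photosynthesis markers. For nitrate at that p, 4351 of all 20288 genes differed, and 0 of 17 CNGC genes and 0 of 4 calmodulin-activated enzymes did. Of 14 CAMTA or CBP60 genes 4 differed, and of 15 root markers 3. The part of these shifts in the lower CAM and CML levels was not tested. In the comparison of icpk with wild type with KCl none of the 30 markers was called, and the summed levels of both lists overlapped between those groups.

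**Figure D5:**
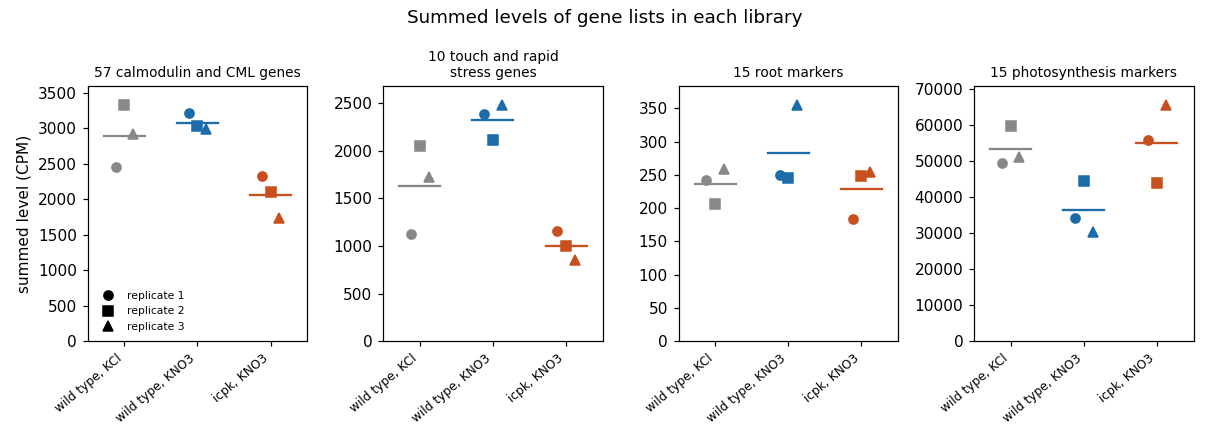
Summed levels in CPM in each library for the 57 calmodulin and CML genes, 10 touch and rapid stress genes, 15 root markers and 15 photosynthesis markers, with a bar at each group mean and each axis starting at 0. The icpk libraries are the lowest of the CAM and CML sums, 1740 to 2325 CPM, while the photosynthesis sum is lowest in wild type with KNO3.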

How the data were processed

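The authors deposited raw counts per gene for each of 9 libraries, made from an unstranded TruSeq kit and 50 cycles per the labels' protocols, with TopHat and HTSeq on TAIR10 per the submitters' processing notes. No version, annotation release or strand setting is given in the sources used here. Between 26.7% and 84.3% of records lay in 5 summary rows that name no gene and were left out. The authors also deposited 2 comparison tables with, per the file headers, a base mean signal, a log2 fold change, a test score and a p-value, used only for the authors' calls.

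Counts were filtered with filterByExpr (minimum count 10) and scaled with TMM factors. Groups were compared by the quasi-likelihood F-test of edgeR 4.0.16 (R 4.3.3) in 1 model over the 9 libraries with a mean per group, a procedure checked on simulated data. A gene was called where its p, adjusted over 20288 genes by Benjamini and Hochberg, lay below 0.05. Standard errors are approximate, the log2 difference over the root of F. The biological coefficient of variation was 15.1%.

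Replicate numbers come from the sample titles. Between icpk and wild type with KNO3, libraries with the same number deviated together from the group means (correlations 0.18, 0.12 and 0.31), so the numbers were taken to pair them, though what they share is not given. The other comparisons did not meet this (-0.036, 0.16 and 0.30 for nitrate). The fit without a block is reported.

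All 57 members matched RefSeq genes of TAIR10.1, the source of exon lengths (union of annotated exons), sequences and coordinates. The members and gene lists were chosen with earlier results of these data known. Values per library are given for CAM1 to CAM7, CML12, CML23, CML24 and each member called in the nitrate or icpk comparison. Other members named were chosen after their values were seen. Up to 4 called genes of each list are named by smallest p. Alternatives were other size factors, no filter, DESeq2 1.42.0, limma voom (limma 3.58.1), 6 libraries, a replicate block and leaving out libraries.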

Additional observations from a re-analysis of the deposited data

How the results depend on the processing

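For the icpk comparison under KNO3, the count of 16 members lower and 0 higher was the same with other size factors, with no filter and with limma voom, 16 with the 6 libraries alone, 17 with the replicate block and 19 with DESeq2. Leaving out 1 library gave 9 to 16 lower and 0 to 1 higher, and replicates 1 and 2 of every group alone gave 5. The share of all genes called lower was 11.4%, and it was 10.6% with DESeq2, 6.73% to 10.8% without 1 library and 3.75% with replicates 1 and 2 alone. For nitrate, 1 member lower was found in every fit except 3 of the fits that left out 1 library, where the count ranged from 0 to 1. The count higher was 0 and became 1, CML47, with DESeq2, with the 6 libraries alone, with the replicate block (adjusted p = 0.0182) and in some fits without 1 library, a range of 0 to 1. For icpk given KNO3 against wild type given KCl, 8 lower became 15 with DESeq2, 1 with replicates 1 and 2 alone, and 3 to 12 when 1 library was left out, where the share of all genes called lower was 3.84% and became 4.56%, 0.951% and 1.64% to 4.69%. The replicate block otherwise added CML11 in the icpk comparison and removed CML5 in the one against KCl, and changed no other member's call.

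Of 1055 values of single genes under 16 alternatives, 957 kept direction and call, 60 lost a call, 19 gained one and 19 changed sign, none of the last called. The sign changes came when libraries were left out. For nitrate the ranges over the fits without 1 library were -0.10 to 0.05 (CAM1), -0.16 to 0.06 (CAM2), -0.28 to 0.05 (CML16), -0.12 to 0.11 (CML21), -0.12 to 0.19 (CML24), -0.17 to 0.22 (CML42), -0.09 to 0.54 (CML45) and -0.03 to 0.29 (CML49). For icpk against wild type with KCl they were -0.26 to 0.01 (CAM5), -0.11 to 0.03 (CAM7) and -0.31 to 0.49 (CML47). With replicates 1 and 2 alone, CAM1 and CAM2 stood at 0.12 for nitrate, CML39 at 0.04 for icpk against wild type with KNO3, and CAM7 at 0.04 for icpk against wild type with KCl. The cause was not tested. Counts of 2 to 21 a library limit CML3.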
